A study of Mus musculus with 44 samples.

Results

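Trefoil factors and gastrokines are the small peptides that the surface and neck cells of the stomach secrete together with mucus. The 6 genes examined were the 3 trefoil factors Tff1, Tff2 and Tff3 and the 3 gastrokines Gkn1, Gkn2 and Gkn3, named by symbol and taken from 31484 genes, for which the estimated counts of all transcripts with the same GENCODE vM21 gene name were summed. All 6 were among the 14901 genes that passed the filter on low counts and were tested. The data were from biopsies of the gastric corpus mucosa of BalbC mice aged 13 months. KO mice lacked the H+/K+ATPase beta subunit, which parietal cells need for acid secretion, in every cell, and WT mice carried the intact gene. The libraries were 11 of WT/PEG, 13 of KO/PEG, 9 of WT/NTZ and 11 of KO/NTZ mice, in which PEG is the polyethylene glycol vehicle and NTZ is netazepide, an antagonist of the gastrin receptor that the labels call yf. All mice had injections of NTZ or PEG for a year, so that no group was untreated.

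Trefoil factors carry a compact 3-loop fold held by disulphide bonds, which resists digestion, and they act in mucus and in the repair of the epithelium. In the healthy corpus Tff1 is made by surface pit cells together with the mucin Muc5ac, and Tff2 by mucous neck cells together with the mucin Muc6, while Tff3 belongs to the goblet cells of the intestine. Tff2, once called spasmolytic polypeptide, gave its name to spasmolytic polypeptide-expressing metaplasia (SPEM), in which glands that have lost parietal cells fill with cells resembling mucous neck and antral gland cells. Gastrokines contain a BRICHOS domain, a fold that shields aggregation-prone peptides. Gkn1 and Gkn2 are pit cell products, and the Gkn2 protein is joined to Tff1 by a disulphide bond. Gkn3 is a functional gene in the mouse, is found in antral gland and neck cells, and is widely inactive in people.

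The genes lie in 2 clusters of the GRCm38 genome. On chromosome 17 all 3 trefoil factors were on the minus strand, Tff3 (ENSMUSG00000024029) from 31125306 to 31129646, Tff2 (ENSMUSG00000024028) from 31141049 to 31144282 and Tff1 (ENSMUSG00000024032) from 31161395 to 31165277. On chromosome 6, Gkn1 (ENSMUSG00000030050) was on the minus strand from 87345650 to 87350942, Gkn2 (ENSMUSG00000030049) on the plus strand from 87373357 to 87379497 and Gkn3 (ENSMUSG00000030048) on the minus strand from 87383256 to 87388935. Each gene was measured by 1 protein-coding transcript, with 3 exons in Tff1 and Tff3, 4 in Tff2 and 6 in each gastrokine. Ambiguous reads were hardly possible between these genes and others, since 0 of the 31-base words of Tff2, Tff3, Gkn1, Gkn2 and Gkn3 and 1 of the 673 of Tff1 occurred in transcripts of other genes. Gm15318 overlaps Tff1 in the annotation and was not analysed here.

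The promoters of the 3 gastrokines are shown because these neighbours on chromosome 6 moved in opposite directions between WT and KO mice, Gkn1 and Gkn2 down and Gkn3 up. They are the 250 bases before the transcription start in RefSeq (GRCm38.p6), written 5′ to 3′ on the strand of the gene, for Gkn1 at chr6:87350916-87351165 on the minus strand, for Gkn2 at chr6:87373115-87373364 on the plus strand and for Gkn3 at chr6:87388936-87389185 on the minus strand. Capitals mark every match to a motif that was searched on both strands, with TTATC standing for GATAA and TGAGTCA for TGACTCA on the opposite strand.

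Gkn1: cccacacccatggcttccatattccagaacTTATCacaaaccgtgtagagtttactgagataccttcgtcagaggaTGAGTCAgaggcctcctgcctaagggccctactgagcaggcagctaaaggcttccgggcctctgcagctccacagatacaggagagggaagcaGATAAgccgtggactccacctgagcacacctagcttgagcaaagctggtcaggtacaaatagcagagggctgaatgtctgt
Gkn2: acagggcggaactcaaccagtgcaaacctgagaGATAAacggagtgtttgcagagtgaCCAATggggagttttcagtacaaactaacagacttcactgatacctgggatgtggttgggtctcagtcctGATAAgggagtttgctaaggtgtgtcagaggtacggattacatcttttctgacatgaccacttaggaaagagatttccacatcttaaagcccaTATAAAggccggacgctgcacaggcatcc
Gkn3: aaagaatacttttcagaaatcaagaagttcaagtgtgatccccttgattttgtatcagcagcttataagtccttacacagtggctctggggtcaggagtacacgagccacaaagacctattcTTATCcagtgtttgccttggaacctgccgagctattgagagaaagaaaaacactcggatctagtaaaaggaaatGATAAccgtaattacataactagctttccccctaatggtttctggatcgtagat

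GATAA, the core bound by GATA factors, was found in all 3 promoters, at 2 places in each, and in 22.6% of 32851 mouse promoters of the same length. In Gkn1 the matches began at bases -220 and -81, in Gkn2 at -217 and -122 and in Gkn3 at -128 and -54, counted from the start. TATAAA, the core promoter element that binds the TATA-binding protein, was found in Gkn2 alone of the 3, at -29 (12.4% of all promoters), and CCAAT in Gkn2 alone at -192 (33.8%). TGACTCA, the AP-1 motif, was found in Gkn1 alone at -174 (4.46%). TGTTTAC (FOX factors, 3.17% of promoters), TTCNNNGAA (STAT factors, 7.02%) and GGAATG (TEAD factors, 12.6%) had no match in these windows, and no match shared a base with another.

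Gene totals were between 5990115 and 21830640 estimated counts per library, and a count of 3, taken as the smallest signal and covering counting error only, was between 0.113 and 0.587 CPM (counts scaled by library size after TMM normalization). Labels give an animal number to each library. A pair of WT/PEG libraries carry the same number, number 110 occurs on 1 KO/PEG and on 1 KO/NTZ library, and the study's methods name fewer KO/PEG mice than the 13 KO/PEG libraries, so that libraries may share a mouse and p-values measure the spread between libraries. Animals numbered 100 or above were 11 of 11 in WT/PEG, 7 of 13 in KO/PEG, 4 of 9 in WT/NTZ and 1 of 11 in KO/NTZ. All 7 parietal cell markers fell in KO/PEG against WT/PEG, with a median log2 fold change of -2.48. Among them Atp4b is the gene of the missing beta subunit, so that its fall was set by the design. Its mean was 3923 CPM in WT/PEG and 6.84 CPM in KO/PEG. The mean of Atp4a, a marker that was not deleted, was 8087 CPM in WT/PEG and 4044 CPM in KO/PEG. In the same comparison 4 of 5 chief cell genes tested and 4 of 5 muscle genes fell, and 4 of 5 leukocyte genes and 4 of 6 endocrine genes rose. Of all genes tested 37.2% fell and 37.5% rose there, 74.6% in all, so that many genes of any short list would pass. The median summed level of chief cell genes was 186090 CPM in WT/PEG and 10743 CPM in KO/PEG, and the part of these cell types in the results on the 6 genes was not tested. Some libraries held other parts of the stomach. The summed level of 9 forestomach markers ran from 0.465 to 3534 CPM in WT/NTZ (median 685) and from 0.699 to 468 CPM in WT/PEG (median 1.16), and Gast, the gastrin gene of the antrum, was above 10 CPM in 1 WT/PEG, 2 WT/NTZ and 1 KO/NTZ library. KO/PEG replicate 46 stood apart with 14.5% of counts from mitochondrial genes, against at most 11.8% in the others. In bulk tissue, fewer cells of a type and less RNA per cell cannot be told apart.

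**Figure D1:**
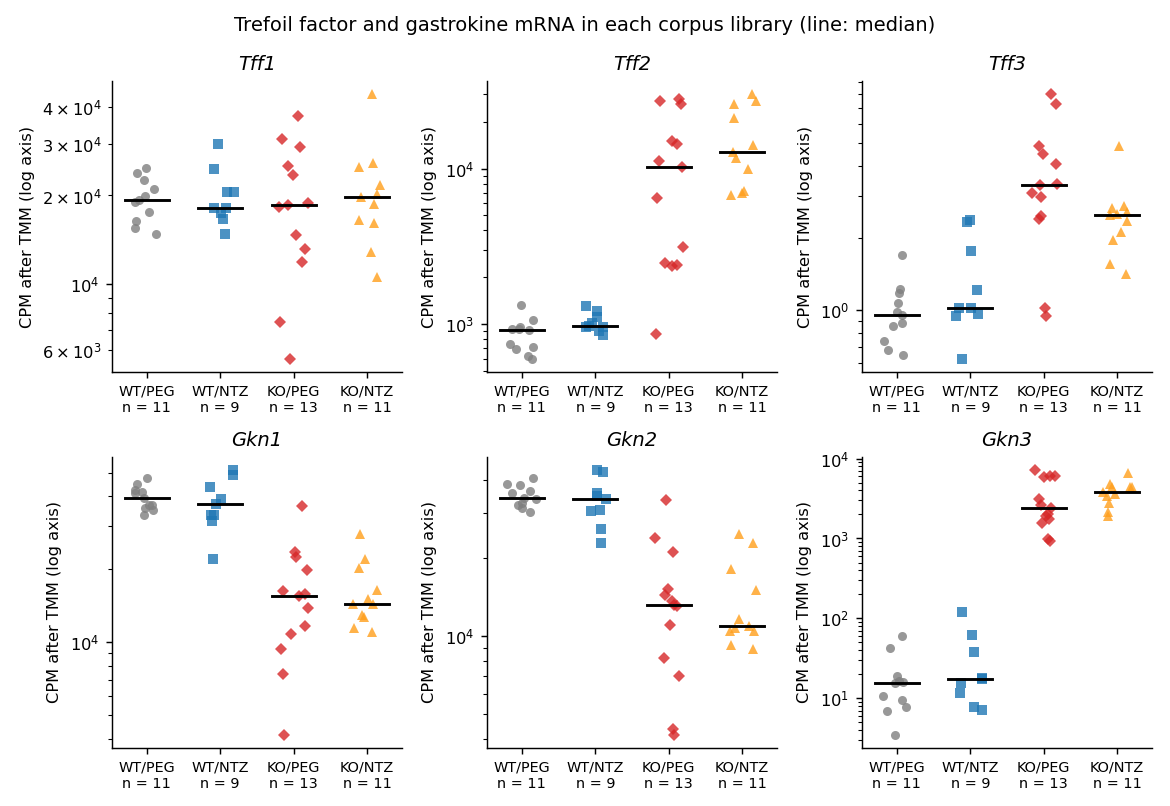
Normalized level of each trefoil factor and gastrokine (CPM after TMM, log axis) in the 44 libraries by group, with 1 point a library and a line at the median. Gkn3 separates every KO library from every WT library, Gkn1 and Gkn2 are lower in most KO libraries, and Tff1 has similar medians in the 4 groups but a wider spread in KO mice.

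The first comparison asked how loss of the H+/K+ATPase beta subunit altered these peptides under vehicle. In KO/PEG versus WT/PEG mice 3 of the 6 genes rose (Tff2, Tff3 and Gkn3), 2 fell (Gkn1 and Gkn2) and Tff1 did not pass the test. The background was large, since 74.6% of all genes tested passed in this comparison, 37.5% of them upward and 37.2% downward, so the number of these genes that passed is near what any genes would show. The sizes of the changes ranged from a log2 fold change of -1.31 for Gkn1 and Gkn2 to 7.43 for Gkn3. The median log2 fold change of all genes was -0.003.

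Gkn3 had the widest change. In WT/PEG mice it had between 3.52 and 60.9 CPM (median 15.4), and in KO/PEG mice between 933 and 7203 CPM (median 2401). Every KO/PEG library exceeded all WT/PEG libraries, which held for 5.46% of all genes in the upward direction. The log2 fold change was 7.43 (SE, the standard error, 0.56, adjusted p = 1.3e-14 by Benjamini-Hochberg adjustment after edgeR's quasi-likelihood test), the 10th highest of the 14901 genes. On a length-scaled scale (TPM by annotated length), which allows a rough comparison of genes, Gkn3 moved from rank 3822 by median in WT/PEG to rank 22 in KO/PEG.

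Tff2, the peptide that defines SPEM, rose less on the log2 scale but from a higher level. It had between 598 and 1322 CPM (median 909.9) in WT/PEG and between 868 and 28142 CPM (median 10208) in KO/PEG, and 12 of 13 KO/PEG libraries exceeded all of WT/PEG. The exception was replicate 46, the library with the highest mitochondrial share. The log2 fold change was 3.75 (SE 0.42, adjusted p = 3.91e-10 by the same edgeR test). With animals numbered 100 or above alone it was 4.33 (adjusted p = 2.17e-13 by the same test).

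Tff3, the goblet cell trefoil factor, was rare throughout, with 6 to 98 counts per library. It had between 0.646 and 1.70 CPM (median 0.951) in WT/PEG and between 0.945 and 8.02 CPM (median 3.36) in KO/PEG. Of the KO/PEG libraries 11 of 13 exceeded all of WT/PEG, and the 2 others were replicates 32 and 46. The log2 fold change was 1.90 (SE 0.27, adjusted p = 9.26e-08 by the same edgeR test). Even so its median length-scaled level in KO/PEG was 7.42 TPM against 21573 TPM for Tff2.

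Gkn1 and Gkn2 fell by nearly the same factor. Gkn1 had between 33555 and 47293 CPM (median 39122) in WT/PEG and between 4170 and 36490 CPM (median 15572) in KO/PEG. Gkn2 had between 30046 and 40915 CPM (median 34147) in WT/PEG and between 4170 and 33689 CPM (median 13181) in KO/PEG. For both genes 12 of 13 KO/PEG libraries lay under the WT/PEG range, and the library that overlapped was replicate 52 in each case. Of all genes 8.87% had every KO/PEG library under the WT/PEG range, which Gkn1 and Gkn2 did not. The log2 fold change was -1.31 for Gkn1 (SE 0.21, adjusted p = 8.26e-07) and -1.31 for Gkn2 (SE 0.23, adjusted p = 4.09e-06), both by the same edgeR test.

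Tff1, the trefoil factor of the pit cells, had the same mean in both groups and a wider spread in KO mice. It had between 14838 and 24763 CPM (median 19334) in WT/PEG and between 5593 and 37122 CPM (median 18593) in KO/PEG. Of the 13 KO/PEG libraries 4 lay above and 5 below the WT/PEG range. The coefficient of variation was 17.1% in WT/PEG and 47.6% in KO/PEG. The 95% interval of the log2 fold change ran from -0.43 to 0.43 (adjusted p = 0.987 by the same edgeR test). The spread was also wider in KO/PEG for the other genes that are abundant in WT mice, at 11.1% and 52.5% for Gkn1 and 9.77% and 58.6% for Gkn2, and no test of the spread was run.

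**Figure D2:**
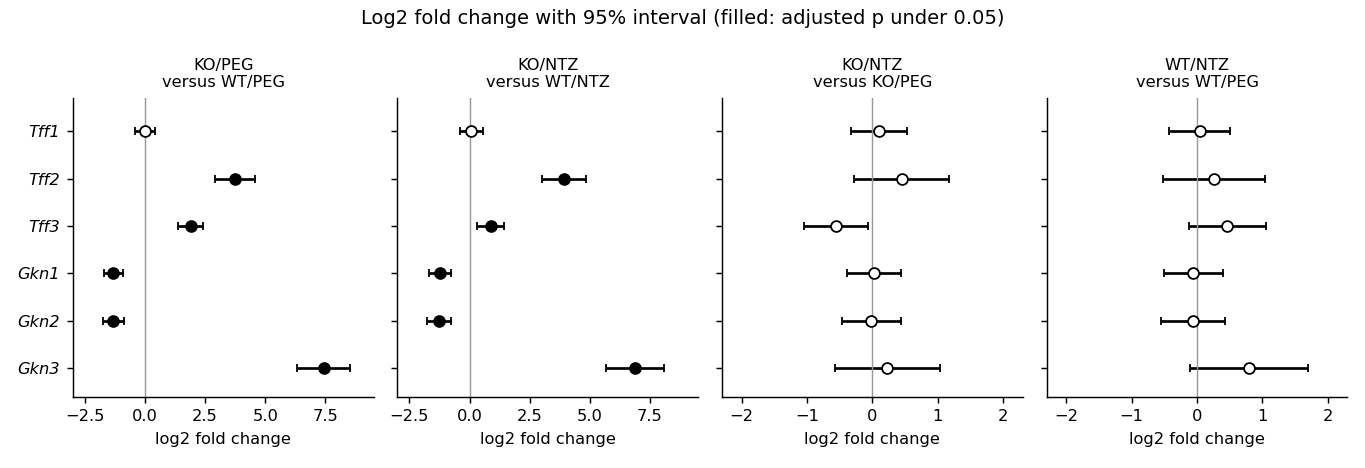
Log2 fold change of each gene in 4 comparisons, with 95% intervals from the SE of edgeR's quasi-likelihood fit, and filled points where the adjusted p was under 0.05. The left pair (KO against WT under PEG and under NTZ) and the right pair (NTZ against PEG in KO and in WT) have different horizontal scales. In both KO against WT panels 5 of 6 points are filled, and in both NTZ against PEG panels none is.

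The genotype comparison was repeated under NTZ, in KO/NTZ versus WT/NTZ mice. Its group means came from other libraries than those of the first comparison. Both comparisons came from 1 fit over all 44 libraries that shares normalization and the estimate of spread, so this is not an independent repeat. The same 5 genes passed in the same directions, against 72.4% of all genes (35.6% upward and 36.8% downward). Gkn3 was between 1889 and 6610 CPM in KO/NTZ and between 7.05 and 120 CPM in WT/NTZ (log2 fold change 6.87, SE 0.61, adjusted p = 1.81e-12 by Benjamini-Hochberg adjustment after edgeR's quasi-likelihood test). Tff2 was between 6803 and 30019 CPM in KO/NTZ and between 853 and 1315 CPM in WT/NTZ (log2 fold change 3.93, SE 0.47, adjusted p = 2.54e-09 by the same test). For Gkn3 and Tff2 all 11 KO/NTZ libraries exceeded all of WT/NTZ, which held for 14.4% of all genes. When the 4 libraries with Gast above 10 CPM were left out, a choice made after the data were seen, the log2 fold change of Gkn3 was 7.92 (adjusted p = 7.97e-14 by the same test).

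The other genes moved less under NTZ. Gkn1 had a log2 fold change of -1.22 (SE 0.23, adjusted p = 1.31e-05) and Gkn2 of -1.26 (SE 0.25, adjusted p = 3.17e-05) in KO/NTZ versus WT/NTZ by the same edgeR test. For both, 10 of 11 KO/NTZ libraries lay under the WT/NTZ range, and 12.4% of all genes had every library under it. Tff3 was between 1.41 and 4.87 CPM in KO/NTZ and between 0.624 and 2.39 CPM in WT/NTZ, and 6 of 11 KO/NTZ libraries exceeded all of WT/NTZ. Its log2 fold change was 0.88 (SE 0.29, adjusted p = 0.00761 by the same edgeR test). It did not pass (log2 fold change 0.61, adjusted p = 0.322 by the same test) when libraries with over 100 CPM of summed forestomach markers were left out, which kept 3 of 9 WT/NTZ and 6 of 11 KO/NTZ libraries. For Tff1 the 95% interval of the log2 fold change ran from -0.41 to 0.54 (adjusted p = 0.813 by the same edgeR test).

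The effect of the gastrin receptor antagonist was then examined within each genotype. In KO/NTZ versus KO/PEG mice 0 of the 6 genes passed edgeR's quasi-likelihood test, against 5.56% of all genes (2.97% upward and 2.6% downward), and DESeq2 and limma-trend also called 0. At an unadjusted p under 0.05 there was 1, Tff3. In WT/NTZ versus WT/PEG mice 0 of 6 passed with edgeR, DESeq2 or limma-trend and 0 had an unadjusted p under 0.05, against 1.03% of all genes passing upward and 0.00671% downward with edgeR.

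In KO mice Tff3 had a median of 3.36 CPM under PEG and 2.50 CPM under NTZ. Its log2 fold change was -0.56 with a 95% interval from -1.06 to -0.06 (unadjusted p = 0.0328, adjusted p = 0.165 by Benjamini-Hochberg adjustment after edgeR's quasi-likelihood test). The ranges overlapped, since no KO/NTZ library was below the lowest KO/PEG library. For none of the 6 genes were KO/NTZ and KO/PEG ranges separate, as was the case for 0.00671% of all genes upward and 0.0336% downward.

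Tff2 was between 868 and 28142 CPM in KO/PEG and between 6803 and 30019 CPM in KO/NTZ, and 6 KO/PEG libraries lay below the lowest KO/NTZ library. The log2 fold change was 0.45 with a 95% interval from -0.27 to 1.17 (adjusted p = 0.426 by the same edgeR test). This result depended on the animal numbers. Among KO/PEG libraries, Tff2 averaged 17190 CPM in the 7 numbered 100 or above and 4934 CPM in the 6 numbered below 100 (log2 difference 1.80, SE 0.45, adjusted p = 0.0397 by the same edgeR test), where 1.14% of all genes passed, and the other 5 genes examined did not. With only KO animals numbered below 100, Tff2 was higher in KO/NTZ than in KO/PEG (log2 fold change 1.69, adjusted p = 0.00819 by the same test). The share of all genes that passed in this subset is not given here. Its 6 KO/PEG libraries include replicate 46, with 868 CPM of Tff2 and 14.5% of counts from mitochondrial genes, and its part in this value was not tested. What the numbers stand for is not given in the sources used here, and nearly all KO/NTZ animals were numbered below 100, so that number and treatment cannot be told apart for the others.

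For the rest the intervals give the sampling error of the difference between KO/NTZ and KO/PEG libraries. They do not separate NTZ from animal number, and they take each library as a separate mouse. The 95% intervals of the log2 fold change were -0.32 to 0.53 for Tff1, -0.39 to 0.44 for Gkn1, -0.47 to 0.44 for Gkn2 and -0.57 to 1.03 for Gkn3, with adjusted p of 0.78, 0.95, 0.968 and 0.735 by the same edgeR test. In WT mice they were -0.43 to 0.51 for Tff1, -0.53 to 1.05 for Tff2, -0.13 to 1.06 for Tff3, -0.52 to 0.39 for Gkn1, -0.56 to 0.44 for Gkn2 and -0.11 to 1.69 for Gkn3. The interaction of genotype and NTZ passed for 0 of 6 genes with edgeR, DESeq2 or limma-trend, against 0.96% of all genes with edgeR (0.242% upward and 0.718% downward). At an unadjusted p under 0.05 there was again 1, Tff3, which was lower under NTZ in KO and higher in WT mice (difference -1.02, SE 0.40, unadjusted p = 0.0129, adjusted p = 0.244 by the same test).

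In WT mice the libraries with the most Gkn3 also held markers of the antrum, whose part in the Gkn3 level was not tested. The WT/NTZ values were 7.05, 7.80, 11.5, 15.4, 17.2, 18.1, 37.9, 61.3 and 120 CPM. In the 3 highest, in the same order, Gast was 0.246, 31.3 and 40.0 CPM and Nkx6-3, a transcription factor of antral glands, 4.55, 6.99 and 12.6 CPM. In WT/PEG the highest library had 60.9 CPM of Gkn3 with 14.6 CPM of Gast and 10.1 CPM of Nkx6-3, and the next had 42.2 CPM of Gkn3 with 0 CPM of Gast and 11.8 CPM of Nkx6-3. In the 13 KO/PEG libraries Gkn3 was at 933 CPM or above with Gast between 0 and 0.945 CPM and Nkx6-3 between 0 and 3.85 CPM. The highest Gkn3 among them, 7203 CPM in replicate 110, came with 0 CPM of Gast and 0.153 CPM of Nkx6-3, and the highest Nkx6-3, in replicate 46, with 1892 CPM of Gkn3. Pdx1, another marker of the antrum, was not low in KO mice. It was between 0.128 and 10.4 CPM in KO/PEG and between 0 and 4.84 CPM in WT/PEG (log2 fold change 0.78, adjusted p = 0.242 by edgeR's quasi-likelihood test). The highest Pdx1, in KO/PEG replicate 45, came with 2036 CPM of Gkn3. The log2 fold change of Gkn3 in WT/NTZ versus WT/PEG was 0.79 (adjusted p = 0.80 by Benjamini-Hochberg adjustment after edgeR's quasi-likelihood test) and 0.155 (adjusted p = 1 by the same test) without the libraries with Gast above 10 CPM. Without the libraries with over 100 CPM of forestomach markers it turned to -0.279 (adjusted p = 1 by the same test).

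**Figure D3:**
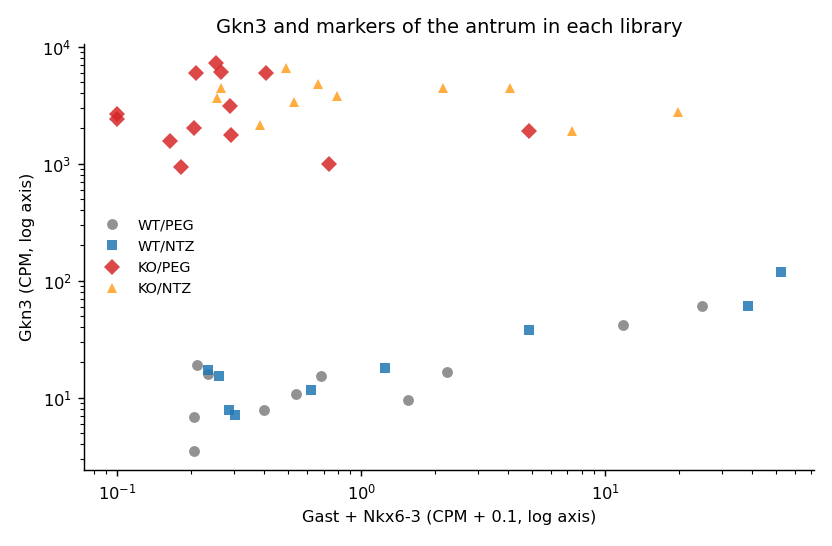
Gkn3 level (CPM, log axis) against the sum of the antral markers Gast and Nkx6-3 (CPM with 0.1 added, log axis), 1 point a library. The antral marker Pdx1 is not part of the sum. WT libraries with more antral marker have more Gkn3, up to 120 CPM, while KO libraries lie at 933 CPM or above wherever they fall on the horizontal axis.

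Scaled by transcript length, the order of the 6 genes changed with genotype. In WT/PEG the medians were 50053 TPM for Gkn2, 35487 TPM for Gkn1, 31300 TPM for Tff1, 1623 TPM for Tff2, 18.5 TPM for Gkn3 and 2.20 TPM for Tff3. Gkn2, Gkn1 and Tff1 ranked 4, 5 and 6 among all genes there. The ranges of Gkn1 (29009 to 39921 TPM) and Tff1 (24230 to 36564 TPM) overlapped, whereas the lowest Gkn2 library (41205 TPM) was above the highest of both.

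In KO/PEG the medians were 28530 TPM for Tff1, 21573 TPM for Tff2, 19435 TPM for Gkn2, 15116 TPM for Gkn1, 4107 TPM for Gkn3 and 7.42 TPM for Tff3, and Tff1, Tff2 and Gkn2 ranked 1, 2 and 3 among all genes. The ranges of the first 4 overlapped widely, from 2763 to 51979 TPM for Tff2 alone, so that their order was within the spread between libraries. In KO/NTZ the order by median was Tff1, Tff2, Gkn2, Gkn1, Gkn3 and Tff3, with 31391 TPM for Tff1 and 26515 TPM for Tff2. The 6 genes together held a median of 8.90% of all counts in WT/PEG, 7.35% in KO/PEG, 8.21% in WT/NTZ and 7.07% in KO/NTZ.

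**Figure D4:**
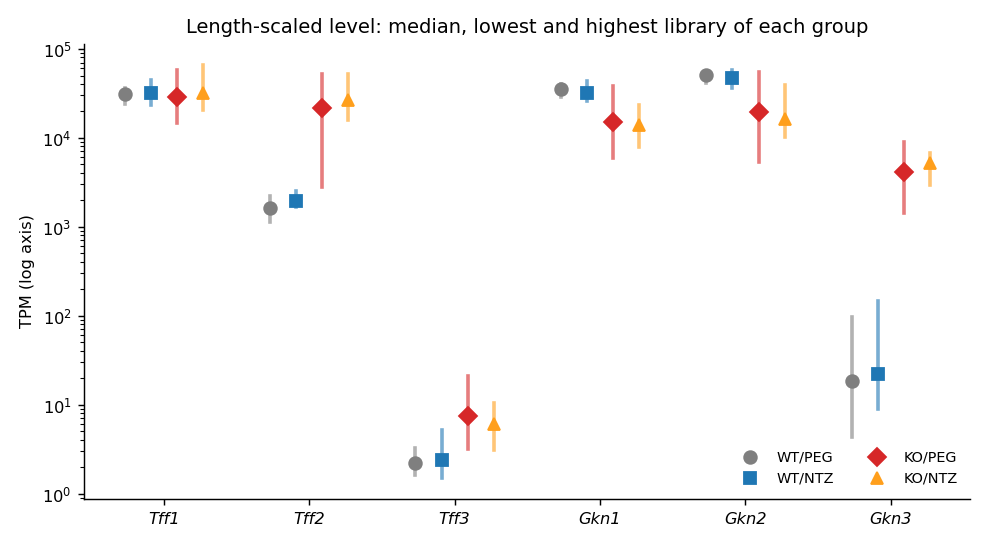
Length-scaled level (TPM, log axis) of each gene, with the median of each group as a point and a line from the lowest to the highest library. Tff2 and Gkn3 are higher and Gkn1 and Gkn2 lower in both KO groups, and Tff3 stays below 21.1 TPM in every library.

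The pit cell products did not keep their proportions, given here as ratios of TPM with no test. Gkn1 was 1.11 times Tff1 in the median WT/PEG library (range 1.02 to 1.35) and 0.471 times Tff1 in the median KO/PEG library (range 0.229 to 0.707), so the groups did not overlap. Gkn2, the binding partner of Tff1, was 1.53 times Tff1 in WT/PEG (range 1.39 to 1.88) and 0.700 times in KO/PEG (range 0.204 to 0.970), again with no overlap. How often the ratios of other gene pairs separate the groups was not counted. Since the mean of Tff1 was the same in both groups, the lower ratios largely restate the falls of Gkn1 and Gkn2. The ratio of Gkn2 to Gkn1 had a median of 1.39 in WT/PEG and 1.46 in KO/PEG. Tff2 rose from 0.0559 times Tff1 in WT/PEG (range 0.0359 to 0.0643) to 0.536 times in KO/PEG (range 0.0961 to 2.31), so that in some KO/PEG libraries Tff2 exceeded Tff1. Gkn3 was 0.000476 times Gkn1 in the median WT/PEG library and 0.254 times in the median KO/PEG library (range 0.0373 to 1.18).

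Whether the genes varied together was tested within each group, over 15 pairs in 4 groups, with Pearson's r of log2 CPM, two-sided permutation tests and Benjamini-Hochberg adjustment over the 60 tests. Gkn1 and Gkn2 were tied in every group, with r of 0.96 in WT/PEG (n = 11, Spearman's rho 0.93, permutation test), 0.96 in KO/PEG (n = 13, rho 0.99), 0.97 in WT/NTZ (n = 9, rho 0.98) and 0.96 in KO/NTZ (n = 11, rho 0.94). The permutation p was 2e-05 in WT/PEG, 8.27e-06 by the exact test in WT/NTZ and 1e-05, the smallest that 100000 permutations can give, in KO/PEG and KO/NTZ, and the largest adjusted p was 3e-04. Without the 2 libraries farthest from the median of Gkn1, r was 0.91, 0.97, 0.96 and 0.92 in the same order and still passed in each group.

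No other pair passed in any group after the 2 farthest libraries were left out, which also lowers n. The size of r changed little for some of them, as for Tff1 and Gkn1 in WT/PEG (0.86 and 0.84), and fell for others, as for Tff1 and Tff3 in KO/PEG (0.74 and 0.27). Before that, 4 pairs passed in WT/PEG, 6 in KO/PEG, 4 in WT/NTZ and 3 in KO/NTZ. Tff1 followed Gkn1 in KO/PEG with r = 0.81 (rho 0.78, permutation p = 0.00069, adjusted p = 0.00828), and 0.63 without the 2 farthest libraries. Tff3 followed Gkn1 in both KO groups, with r = 0.78 in KO/PEG (rho 0.76, permutation p = 0.00203, adjusted p = 0.0152) and r = 0.79 in KO/NTZ (rho 0.66, permutation p = 0.00295, adjusted p = 0.0177), and r was 0.60 and 0.48 without the 2 farthest libraries. Tff3 and Gkn2 had r = 0.72 in KO/PEG (rho 0.76, permutation p = 0.00615, adjusted p = 0.0264), and 0.55 without the 2 farthest libraries. In WT/NTZ Tff3 passed with Tff2, at r = 0.91 (rho 0.93, exact permutation p = 0.00101, adjusted p = 0.00862). It also passed there with Gkn3, at r = 0.79 (rho 0.57, exact permutation p = 0.0122, adjusted p = 0.0429). Without the 2 farthest libraries these were 0.75 and 0.59. Tff2 and Gkn3 were related in KO/NTZ with r = 0.77 (rho 0.74, permutation p = 0.00601, adjusted p = 0.0264), and 0.67 without the 2 farthest libraries. Without TMM normalization the pair did not pass there (r = 0.66, adjusted p = 0.0697 by the permutation test). The same pair had r = 0.63 in KO/PEG (rho 0.61, permutation p = 0.0236, adjusted p = 0.0616). Tff2 and Gkn2 had r = -0.70 in KO/NTZ (rho -0.84, permutation p = 0.0183, adjusted p = 0.0557). These values share the libraries, their depth and their normalization.

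**Figure D5:**
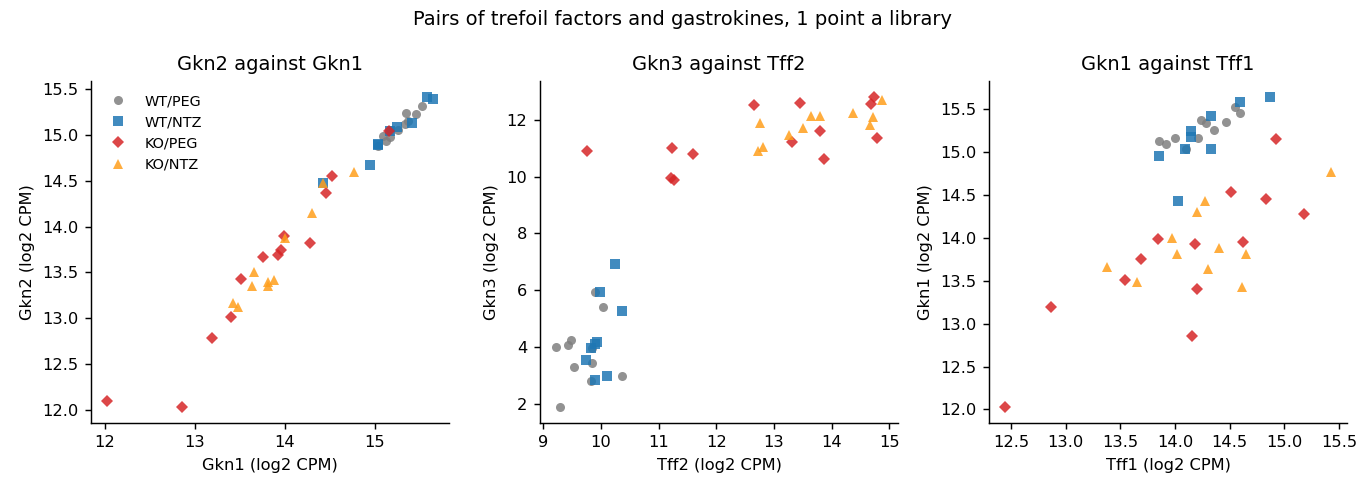
Log2 CPM of Gkn2 against Gkn1, Gkn3 against Tff2 and Gkn1 against Tff1, 1 point a library, with colour and shape for the group. Gkn1 and Gkn2 lie along 1 line through all 44 libraries, while KO and WT libraries form separate clouds for Gkn3 against Tff2 and for Gkn1 against Tff1.

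The genes most like each of the 6 in the 24 KO libraries, by Spearman's rho and as a description, fell in different sets. For Gkn1 and Gkn2 each was the other's nearest gene (rho 0.97). Next for Gkn1 were Capn9 (0.94), a calpain of the digestive tract, Fabp2 (0.94), a fatty acid binding protein, Lasp1 (0.90) and Klrg2 (0.89), and for Gkn2 they were Fabp2 (0.95), Muc5ac (0.93), Lasp1 (0.93) and Capn9 (0.91). Tff1 was nearest to Gal3st1 (0.93), a sulphotransferase of glycolipids, Ube2v1 (0.93), Gipc1 (0.92), Psca (0.92), a surface antigen of pit cells, and Mapk13 (0.91). Its partner Muc5ac ranked 3837 for Tff1 (0.33) but 3 for Gkn2.

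Tff2 and Gkn3 had other nearest genes. Tff2 was nearest to Armcx6 (0.97), Cgref1 (0.96), P3h4 (0.96), Tmed3 (0.94), a cargo protein of the secretory path, and Fbxo36 (0.93), and Muc6, the mucin it is packed with, ranked 62 (0.87). Gkn3 was nearest to Gng13 (0.92), a G protein subunit of tuft cells, Hist1h4i (0.90), Serpinf2 (0.90), Ly6g6f (0.90), a tuft cell antigen, and Wfdc2 (0.90), a protease inhibitor of SPEM, while Muc6 ranked 4207 for Gkn3 (0.41). Tff3 was nearest to Syngr1 (0.85), Carhsp1 (0.83), Hook2 (0.81), Urgcp (0.80) and Cotl1 (0.77). Although Tff3 rose with genotype, within the KO libraries it was closer to the pit cell products, with Gkn1 at rank 107 (0.61), Gkn2 at rank 151 (0.58) and Muc5ac at rank 169 (0.57), than to Tff2 (-0.11) or Gkn3 (-0.26). Over all 44 libraries, where genotype enters, Tff2 was nearest to Ngrn, Tspan13, Agr2, the endoplasmic reticulum protein that folds mucins, Nucb1 and Dap (0.95 each), Gkn3 to Zfp703 and Tmem213 (0.94 each), and Tff1 to Kmt5a (0.76). The order for Tff3 was the reverse there, with rho of 0.71 to Tff2 and 0.62 to Gkn3, and of -0.44 to Gkn1 and -0.45 to Gkn2.

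Genes of the cells that make these peptides were compared in KO/PEG versus WT/PEG with edgeR's quasi-likelihood test, in which 74.6% of all genes passed. Of 13 pit cell genes tested, 3 rose, 7 fell and 3 did not pass (median log2 fold change -0.41), a share that passed near that of all genes. Those with the smallest p were Vsig1 (log2 fold change -1.17, SE 0.11), an adhesion protein, Mucl3 (-2.11, SE 0.21) and Gcnt1 (1.06, SE 0.18), a glycan-branching enzyme, together with Muc1 (1.15, SE 0.14), a membrane mucin. Muc5ac, the pit cell mucin that Tff1 binds, had means of 4533 CPM in WT/PEG and 1338 CPM in KO/PEG (log2 fold change -1.76, SE 0.40, adjusted p = 0.000156). Muc5ac fell along with Gkn1 and Gkn2, while Tff1, a pit cell product in the healthy corpus, did not pass the test. Which cells held the Tff1 RNA in KO mice was not tested.

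All 15 mucous neck and SPEM genes rose (median log2 fold change 3.87), with Clu (3.45, SE 0.20), a secreted chaperone, Wfdc2 (5.60, SE 0.41), Pigr (7.14, SE 0.59), which carries antibodies through the epithelium, and Gpx2 (3.49, SE 0.31), a peroxidase, having the smallest p. Muc6, the partner of Tff2, rose from 204 to 2979 CPM by group mean (log2 fold change 3.87, SE 0.46, adjusted p = 1.45e-09 by the same edgeR test), close to the 3.75 of Tff2. The study took SPEM genes from earlier publications and reported several of those listed here as higher in KO/PEG in the same libraries. Their direction is therefore not independent evidence. The summed level of the list was between 1588 and 2098 CPM in WT/PEG and between 13137 and 54961 CPM in KO/PEG.

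Of 12 intestinal goblet cell genes 6 were tested and all 6 rose (median log2 fold change 4.45), namely Spink4 (5.08, SE 0.39), Clca1 (6.62, SE 0.61), Fcgbp (3.83, SE 0.44), a mucus protein that Tff3 binds, Itln1 (7.25, SE 0.90), a lectin, Spdef (2.88, SE 0.37), a transcription factor of mucous cells, and Zg16 (3.08, SE 0.81). The other 6 were too low to test. Muc2, the intestinal goblet cell mucin, had at most 24 counts in any library, Retnlb at most 4, Cdx2 at most 3, Cdx1 at most 2, and Atoh1 and Ang4 at most 1. Tff3 rose in libraries in which the defining intestinal factors Cdx1, Cdx2 and Atoh1 were at 3 counts or fewer.

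Among partners and processing factors 8 of 11 tested rose, 2 fell and 1 did not pass, where 37.5% of all genes rose and 37.2% fell. Dmbt1, a scavenger receptor that binds Tff2, rose (log2 fold change 4.35, SE 0.45), as did Agr2 (2.67, SE 0.38), A4gnt (1.18, SE 0.24), which makes the glycan on Muc6 that Tff2 recognises, and Cxcr4 (1.37, SE 0.21), a chemokine receptor reported to respond to Tff2. Muc5ac and Agr3 (-3.10, SE 0.46) fell, and Ackr3 had a log2 fold change of 0.15 (adjusted p = 0.35 by the same edgeR test). Agr3 was rare, with means of 0.908 CPM in WT/PEG and 0.107 CPM in KO/PEG, the latter below the smallest signal. Of the 4 other BRICHOS domain genes tested, Itm2c (1.11, SE 0.15) and Tnmd (1.19, SE 0.52) rose, Itm2a (-1.33, SE 0.23) fell and Itm2b had a log2 fold change of -0.10 (adjusted p = 0.371 by the same test). Tnmd was rare too, with means of 0.398 CPM in WT/PEG, at the level of the smallest signal, and 0.891 CPM in KO/PEG. Of 19 gastric transcription factors 8 rose, 6 fell and 5 did not pass, near the 74.6% of all genes that passed. Elf3 (1.35, SE 0.15) and Spdef rose and Gata6 (-1.30, SE 0.15) and Foxa2 (-1.20, SE 0.15), both factors of foregut epithelium, fell.

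The same lists were counted in KO/NTZ versus WT/NTZ, in which 72.4% of all genes passed. There 2 pit cell genes rose and 6 fell of 13, 12 of 15 mucous neck and SPEM genes rose and 0 fell, and 5 of 6 goblet cell genes rose. Of the 11 partners 8 rose and 2 fell there, and of the 19 transcription factors 7 rose and 6 fell. In KO/NTZ versus KO/PEG, in which 5.56% of all genes passed, 0 of 13 pit cell genes passed with edgeR, DESeq2 or limma-trend, and 1 had an unadjusted p under 0.05. Of the 6 goblet cell genes 0 passed with edgeR, 1 with DESeq2 and 2 with limma-trend, and 3 had an unadjusted p under 0.05, so that their call depended on the tool. Those 3 were Itln1 (log2 fold change 2.01, adjusted p = 0.0625 by edgeR), Clca1 (1.37, adjusted p = 0.0698) and Spink4 (0.87, adjusted p = 0.0873), all with higher values under NTZ, and the summed level of the list had a median of 2547 CPM in KO/PEG and 7695 CPM in KO/NTZ. Of the 4 BRICHOS genes 0 passed with any of these tools and 0 had an unadjusted p under 0.05. By edgeR, Olfm4, a stem cell protein, fell (log2 fold change -2.19, SE 0.46, adjusted p = 0.00224), as the only 1 of 15 mucous neck and SPEM genes to pass, and 5 of the 15 had an unadjusted p under 0.05. Those 5 went both ways, with Olfm4 and Dmbt1 (-0.85) lower under NTZ and Aqp5 (1.02), Gpx2 (0.61) and Bpifb1 (0.89) higher. Agr3 (1.73, adjusted p = 0.0263 by edgeR) was the 1 of 11 partners and Barx1 (0.86, adjusted p = 8.97e-05 by edgeR), a factor of stomach mesenchyme, the 1 of 19 transcription factors to pass, both upward, although limma-trend called 0 of the partners. The means of Agr3 were only 0.107 CPM in KO/PEG and 0.335 CPM in KO/NTZ, at the level of the smallest signal. Itln1, Clca1, Spink4, Olfm4, Dmbt1, Aqp5, Gpx2, Bpifb1, Agr3 and Barx1 and the muscle genes were named in this comparison after their values were seen. The muscle genes Des, Acta2 and Tagln were higher in KO/NTZ (0.89, 0.76 and 0.74), and the part of tissue sampled in these values was not tested.

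Genes beside the clusters were compared in the same way. Near the trefoil factors on chromosome 17, within 250 kb, 6 protein-coding genes were tested, and in KO/PEG versus WT/PEG 3 rose, 2 fell and 1 did not pass, against 74.6% of all genes passing. Slc37a1, a sugar phosphate transporter, had means of 35.3 CPM in WT/PEG and 68.6 CPM in KO/PEG (log2 fold change 0.96, SE 0.10), Rsph1 rose (1.04, SE 0.18) and Glp1r, the receptor of glucagon-like peptide 1, fell (-2.11, SE 0.51). Tmprss3, which is nearest to Tff1, had a log2 fold change of 0.15 (adjusted p = 0.651 by Benjamini-Hochberg adjustment after edgeR's quasi-likelihood test). Near the gastrokines on chromosome 6 only Antxr1, next to Gkn1, and Arhgap25 could be tested, and they changed by -0.36 (SE 0.13) and 0.72 (SE 0.30) on the log2 scale. Gkn2 and Gkn3 lie next to each other and moved in opposite directions.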

How the data were processed

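Messenger RNA from corpus biopsies was sequenced as stranded single reads. The authors quantified GRCm38 transcripts with kallisto 0.42.4 (per the submitters' processing notes) and the deposited table holds an estimated count for 94080 transcripts in every library, without normalization. They tested transcripts with Sleuth, which needs files not used here. Transcripts were paired with GENCODE vM21 genes for 92372, and the 1708 others, with 0.329% to 1.305% of counts, were left out. Counts were summed per gene, rounded, filtered with filterByExpr (minimum count 10, minimum total 15), TMM normalized and fitted as 4 group means over all 44 libraries with edgeR 4.0.16 in R 4.3.3. Quasi-likelihood p-values were adjusted by Benjamini-Hochberg over 14901 genes, with a threshold of 0.05. Standard errors are the log2 fold change over the root of F. CPM are after TMM, log2 CPM used a prior count of 2 and TPM used annotated lengths, not effective lengths.

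Depth was 5990115 to 21830640 counts per library, so that Tff3 with 6 to 98 counts is the least precise. Groups came from the labels. The 6 genes, the gene lists and the tests were chosen with earlier results of these data known. Beyond the 6 genes, named genes were at most 4 a list with the smallest p in KO/PEG versus WT/PEG, those a peptide is known to bind, neighbours within 250 kb and the 5 most alike genes. The remaining goblet cell genes, region markers, muscle genes and those named for KO/NTZ versus KO/PEG were chosen after their values were seen. Alternatives were other size factors, filters, tools (DESeq2 1.42.0, limma 3.58.1), the groups compared alone, libraries summed or left out, animal number subsets and the transcript table. Total count scaling and leaving out libraries with antral or forestomach markers were added after seeing the data. The edgeR step was tested on simulated data. Permutation and figures used Python 3.11.15 with scipy 1.17.1 and matplotlib 3.10.9.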

Additional observations from a re-analysis of the deposited data

Results flagged for a closer look

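Gkn3 in 1 WT/NTZ library (119.6 CPM) lay far above the other 8 libraries of its group. Its gap to the next library, at 61.3 CPM, was 0.518 of the whole range, above Dixon's 95% critical value of 0.493 for 9 libraries. On the log2 scale the gap was 0.237 of the range, below that value. Such a gap arises by chance in about 1 of 20 groups, and 12 ends, the highest and lowest library for each of 6 genes, were tested. The same library had the highest Gast of its group (40.0 CPM) and 3534 CPM of summed forestomach markers, and their part in the Gkn3 value was not tested.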

How the results depend on the processing

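Over 44 fits that each left out 1 library and 14 other settings, 190 of 194 counts of genes that passed were equal to those reported and 0 of the genes that passed changed direction. A single call ended, that of Tff3 in KO/NTZ versus WT/NTZ without libraries rich in forestomach markers (log2 fold change 0.61, adjusted p = 0.322 by edgeR), which also leaves fewer samples. A single call was gained, that of Tff2 in KO/NTZ versus KO/PEG with only KO animals numbered below 100, which moved that count from 0 to 1. With a minimum count of 50 Tff3 could not be tested, which lowered the count from 5 to 4 in both genotype comparisons. Without the 2 farthest libraries 1 pair of genes remained correlated in each of the 4 groups, and without TMM 6 pairs passed in KO/NTZ in place of 3. The pairs were not all the same, since Tff2 with Gkn3 no longer passed there. Those gained were Tff2 with Gkn1 (r = -0.78), Tff2 with Gkn2 (-0.83), Gkn2 with Gkn3 (-0.71) and Tff3 with Gkn2 (0.71). Total count scaling moved the median log2 fold change of all genes in KO/PEG versus WT/PEG to 0.29, where Tff1 had 0.25 (adjusted p = 0.243 by edgeR). Depth limits Tff3 most. No paired analysis was possible because the groups compared share fewer than 2 animal numbers.

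Values that did not pass changed sign as follows, from 0.79 for Gkn3 in WT/NTZ versus WT/PEG, -0.56 for the interaction of Gkn3 and at most 0.10 in size for the others, and the cause was not tested. Tff1 in KO/PEG versus WT/PEG had a log2 fold change of -0.156 with limma-trend, -0.004 with the libraries of 1 shared number summed, -0.051 in the transcript table, -0.038 with animals numbered 100 or above, and -0.107 to 0.088 leaving out 1 library. For Tff1 in KO/NTZ versus WT/NTZ it was -0.002 with limma-trend, -0.005 in the transcript table, -0.03 without libraries with Gast above 10 CPM, -0.239 without forestomach libraries, and -0.101 to 0.159 leaving out 1 library. In KO/NTZ versus KO/PEG, Tff1 had -0.063 without Gast libraries, -0.271 without forestomach libraries and -0.062 to 0.217 leaving out 1. Gkn1 had -0.035 with total count scaling, -0.003 without number 110, -0.1 with KO animals below 100, -0.083 without Gast libraries, -0.169 without forestomach libraries and -0.082 to 0.188 leaving out 1. Gkn2 had 0.126 with limma-trend and -0.135 to 0.159 leaving out 1. In WT/NTZ versus WT/PEG, Tff1 had -0.027 without Gast libraries, -0.031 without forestomach libraries and -0.044 to 0.092 leaving out 1, Gkn1 had -0.124 to 0.01 leaving out 1, and Gkn3 had -0.279 without forestomach libraries. For the interaction, the values with total count scaling were -0.047 for Tff1 and -0.046 for Gkn2. Without Gast libraries they were -0.036 for Tff1, -0.026 for Gkn1, -0.07 for Gkn2 and 0.114 for Gkn3, and without forestomach libraries -0.24, -0.095, -0.136 and 0.366. Leaving out 1 library gave -0.106 to 0.174 for Tff1, -0.021 to 0.25 for Gkn1, -0.072 to 0.223 for Gkn2 and -0.925 to 0.005 for Gkn3.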
